A study of Mus musculus with 6 samples.

Results

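Myeloid transcription factors are the DNA-binding proteins that set up and maintain macrophages, monocytes and granulocytes. Described here are 8 of their genes, Spi1, Spic, Cebpa, Cebpb, Cebpd, Tfec, Mitf and Zeb2, out of 26286 genes in the count tables, as they were read in regulatory T cells (Treg) with and without expression of a Blimp-1 reporter. The 8 genes were picked by name, and they were selected on a comparison in which macrophage genes were already known to be higher in the reporter-positive cells. Their differences between the populations are therefore given as a description, without a p-value. All 8 symbols were found in both tables.

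The groups were 3 RNA-seq libraries of GFP+ and 3 of GFP- Treg, sorted as CD4+ CD25high cells out of spleens and lymph nodes of C57BL/6 mice that carry green fluorescent protein (GFP) as a reporter of Blimp-1, the product of Prdm1. Organs were pooled, the number of mice is not given, and every sample title carries the prefix BlimpHet. One library of each population was made by poly(A) selection (GFP+ library 19, GFP- library 20) and the others with a protocol first devised for single cells but applied here to sorted populations (GFP+ libraries 1 and 4, GFP- libraries 2 and 5). Libraries carry the replicate numbers of the sample titles. The design describes the 3 samples of each population as independent in a biological sense. Every p-value measures the spread between these samples.

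PU.1 (Spi1) and Spi-C (Spic) belong to the ETS family, whose members bind a purine-rich motif with a GGAA core. PU.1 is needed for macrophages, granulocytes and B cells and is normally shut down as precursors commit to the T cell lineage, while Spi-C is needed in mice for the red pulp macrophages of the spleen, which recycle iron. The C/EBP proteins (Cebpa, Cebpb, Cebpd) are leucine zipper factors of granulocytes, macrophages, liver and fat. Tfec and Mitf belong to the MiT/TFE family of basic helix-loop-helix zipper proteins, which drive lysosomal and osteoclast genes and, in pigment cells, melanin synthesis. Zeb2 is a zinc finger repressor that macrophages need for their tissue identity and that is also known from terminal effector T and natural killer cells.

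The promoter windows below belong to the genes with the largest difference between the populations (Spic, Tfec), to a gene with a PU box at each of its annotated starts (Zeb2), and to the genes that the single-cell protocol read poorly (Cebpa, Cebpb). Each window runs 5′ to 3′ from 250 bases before to 50 bases after a transcription start in RefSeq, build GRCm38.p6, and capitals mark a motif match. The counts were made on another build, so the coordinates serve only to place the windows.

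Spic (chr10:88682974-88683273, minus strand): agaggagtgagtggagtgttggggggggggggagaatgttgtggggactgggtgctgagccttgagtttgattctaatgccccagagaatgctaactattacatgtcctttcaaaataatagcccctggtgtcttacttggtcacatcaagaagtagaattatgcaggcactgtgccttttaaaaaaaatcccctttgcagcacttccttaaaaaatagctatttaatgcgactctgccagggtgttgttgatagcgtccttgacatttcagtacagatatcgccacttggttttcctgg

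Tfec (chr6:16898392-16898691, minus strand): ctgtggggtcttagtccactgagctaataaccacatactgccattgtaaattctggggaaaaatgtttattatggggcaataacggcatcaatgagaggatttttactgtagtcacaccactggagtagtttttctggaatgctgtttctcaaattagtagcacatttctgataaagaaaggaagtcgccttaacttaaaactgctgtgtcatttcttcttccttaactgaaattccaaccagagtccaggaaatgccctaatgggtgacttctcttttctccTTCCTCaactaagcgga

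Zeb2 (chr2:45117393-45117692, minus strand): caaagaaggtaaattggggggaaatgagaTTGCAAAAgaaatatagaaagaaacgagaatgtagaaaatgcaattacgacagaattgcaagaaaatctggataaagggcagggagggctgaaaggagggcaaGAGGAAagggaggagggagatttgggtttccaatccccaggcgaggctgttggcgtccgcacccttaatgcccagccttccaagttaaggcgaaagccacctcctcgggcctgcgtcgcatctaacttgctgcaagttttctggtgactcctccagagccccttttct

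Cebpa (chr7:35119043-35119342, plus strand): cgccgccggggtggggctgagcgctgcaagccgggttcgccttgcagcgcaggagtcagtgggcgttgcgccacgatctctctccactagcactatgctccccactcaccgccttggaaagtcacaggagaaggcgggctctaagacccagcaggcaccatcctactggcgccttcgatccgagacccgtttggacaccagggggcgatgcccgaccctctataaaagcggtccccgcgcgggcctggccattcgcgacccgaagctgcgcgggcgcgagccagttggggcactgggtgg

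Cebpb (chr2:167688665-167688964, plus strand): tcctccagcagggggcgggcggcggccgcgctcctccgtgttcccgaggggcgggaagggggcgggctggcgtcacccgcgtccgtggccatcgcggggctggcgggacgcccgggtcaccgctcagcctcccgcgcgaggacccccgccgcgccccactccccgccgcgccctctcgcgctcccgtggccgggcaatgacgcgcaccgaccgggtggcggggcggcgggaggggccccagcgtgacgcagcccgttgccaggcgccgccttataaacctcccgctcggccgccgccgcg

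Motifs were searched on both strands as the PU box GAGGAA, the C/EBP motif TTGCNNAA, the MiT/TFE E-box CACGTG and the AP-1 motif TGANTCA. RefSeq windows were at hand for 6 of the 8 genes, 11 windows in all, and not for Spi1 and Cebpd. Tfec has a PU box, read as TTCCTC, 33 bases after its start. Each of the 4 windows of Zeb2, some of which overlap, holds a PU box. The window shown also has a C/EBP motif, and another, which starts further downstream, has 2 AP-1 motifs. Of the 3 windows of Mitf 2 hold a C/EBP motif. The windows of Spic, Cebpa and Cebpb hold none of these letters, and none of the 11 holds the E-box. Among 32817 windows of all genes, 28.3% hold the PU box, 10.8% the C/EBP motif, 7.15% the E-box and 7.81% the AP-1 motif. A match describes letters in a window and not a bound site. Base composition differs widely between the windows, with a GC content of 40.3% for Tfec and 45.0% for Spic, against 67.3% for Cebpa and 80.7% for Cebpb.

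Libraries held between 15224051 and 28354321 counts, and the poly(A) libraries were the deepest. The check of the sort was Prdm1 (Entrez 12142), with 7451 counts in poly(A) GFP+ and 420 in poly(A) GFP- cells and a sum of 949 in single-cell protocol GFP+ and 55 in single-cell protocol GFP- libraries. The T cell label was met in both populations: Foxp3, the factor that defines Treg, had 1230, 2620 and 1940 CPM in GFP+ libraries 19, 1 and 4 and 1100, 1660 and 2210 CPM in GFP- libraries 20, 2 and 5. CPM is the count per 1e6 counts of the tested genes, scaled by TMM. Of the 3507 genes on chromosomes 3, 8 and 9 only 2 had any count in the single-cell protocol table, and none of the 8 factors lies there. In edgeR's quasi-likelihood fit with protocol as covariate, GFP+ Treg had 1032 higher (9.81%) and 387 lower genes (3.68%) of 10523 tested, at an adjusted p under 0.05, and the median log2 fold change of all tested genes was -0.08.

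All 8 factors had a higher CPM in poly(A) GFP+ than in poly(A) GFP- Treg, but by very different amounts. Spic, Tfec and Spi1 stood out in every GFP+ library, Zeb2 rested mainly on the poly(A) pair, the 3 C/EBP genes differed by smaller factors, and Mitf differed little. Of the 8, 4 (Spi1, Spic, Cebpa, Tfec) passed the filter on low counts, and 3 of these (all but Cebpa) were among the genes called higher, beside a background of 9.81%. Since the choice of genes rested on this contrast, nothing is read from that count. For 5 of the 8 (Spi1, Spic, Cebpa, Tfec, Mitf) every GFP+ library lay above every GFP- library of its protocol. The same held for 14.0% of the 21218 genes with a count in any library. Genes with no single-cell protocol count are among the 21218 and cannot meet this condition. The 14.0% is therefore lower than the share among genes that have a single-cell protocol count. A wider filter, with protocol as the group, left out genes that had no count in any single-cell protocol library. It kept 11615 genes and all 8 factors, and it gave the fits of Cebpb, Cebpd, Mitf and Zeb2.

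**Figure D1:**
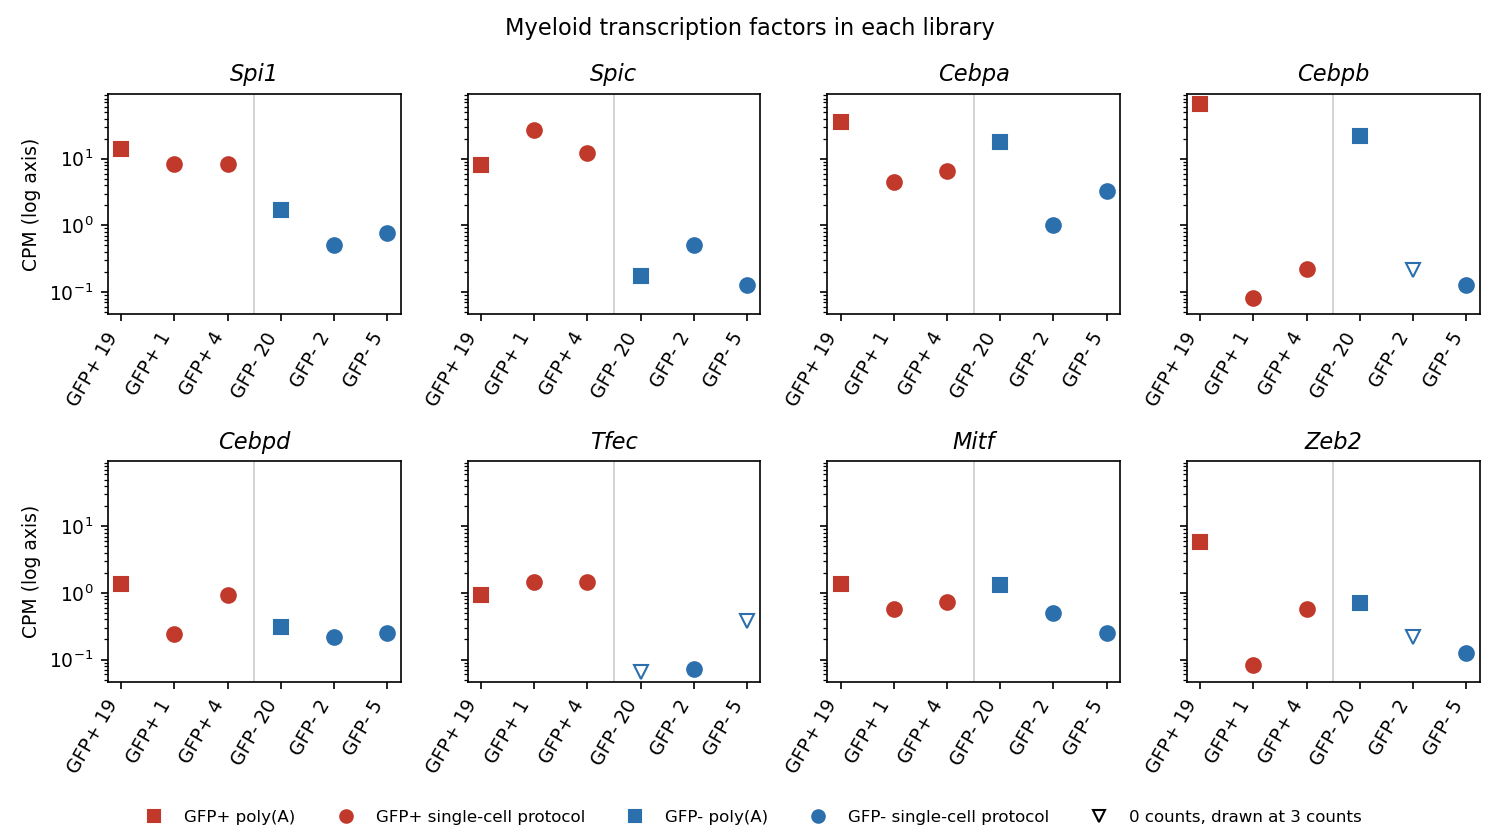
CPM (log axis) of each of the 8 factors in the 6 libraries, GFP+ on the left and GFP- on the right of the grey line. Squares are poly(A) libraries, circles are single-cell protocol libraries, and an open triangle is a library with 0 counts, drawn at the level of 3 counts. GFP+ libraries of Spi1 lie between 8.26 and 13.8 CPM and its GFP- libraries between 0.507 and 1.70 CPM, while Cebpb is above 20 CPM only in the poly(A) libraries.

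Spi1 (Entrez 20375, chromosome 2), the gene of PU.1, had 677, 101 and 114 counts in GFP+ libraries 19, 1 and 4 and 78, 7 and 6 counts in GFP- libraries 20, 2 and 5. In CPM these were 13.8, 8.26 and 8.27 in GFP+ and 1.70, 0.507 and 0.760 in GFP- Treg. The lowest GFP+ library lay above the highest GFP- library, across protocols too. On the log2 scale the fitted fold change was 3.39 ± 0.31 (SE, n = 3 libraries a population), and the poly(A) pair alone gave 8.13-fold (95% interval 6.42 to 10.4, exact binomial, counting error only). GFP- Treg were not at 0 for PU.1: the poly(A) library held 78 counts, where a count of 0 would allow up to 0.0652 CPM.

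Spic (Entrez 20728, chromosome 10), the gene of Spi-C, was nearly absent from GFP- Treg. It had 398, 329 and 170 counts (8.10, 26.9 and 12.3 CPM) in GFP+ libraries 19, 1 and 4, and 8, 7 and 1 counts (0.174, 0.507 and 0.127 CPM) in GFP- libraries 20, 2 and 5. Every GFP+ library exceeded every GFP- library, also across protocols. Within GFP+ Treg the level varied by more than that of Spi1, with replicate 1 highest and replicate 19 lowest. Its fitted log2 fold change was 5.64 ± 0.48 (SE, n = 3 libraries a population), and the poly(A) pair gave 46.6-fold (95% interval 23.4 to 109).

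Tfec (Entrez 21426, chromosome 6), a MiT/TFE member whose expression in mice is largely restricted to macrophages, was the least abundant per length of the 4 factors past the filter. GFP+ libraries 19, 1 and 4 had 46, 18 and 20 counts (0.936, 1.47 and 1.45 CPM), against 0, 1 and 0 counts in GFP- libraries 20, 2 and 5. The groups did not overlap. The fit gave a log2 fold change of 5.76 ± 0.77 (SE, n = 3 libraries a population), but with only 1 count in all GFP- Treg that value depends on the prior count and was 4.81 when GFP+ library 19 was left out and 7.69 when GFP- library 2 was. In the poly(A) pair Tfec was at least 14.4-fold higher in GFP+ Treg when 3 counts are taken as the floor of the GFP- library, and the lower limit of the exact binomial 95% interval of the ratio, which covers counting error only, was 11.2.

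Mitf (Entrez 17342, chromosome 6), the relative of Tfec known from melanocytes, mast cells and osteoclasts, differed by the smallest factor of the 8. It had 67, 7 and 10 counts (1.36, 0.573 and 0.725 CPM) in GFP+ libraries 19, 1 and 4 and 60, 7 and 2 counts (1.30, 0.507 and 0.253 CPM) in GFP- libraries 20, 2 and 5. Although each GFP+ library was above the GFP- libraries of its protocol, the margins were small, and the GFP- poly(A) library lay above both GFP+ single-cell protocol libraries. A log2 fold change of 0.34 ± 0.43 was fitted (SE, n = 3 libraries a population, wider filter), and the poly(A) ratio of 1.05 had an interval from 0.727 to 1.51.

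Among the C/EBP genes, Cebpa (Entrez 12606, chromosome 7), which directs granulocyte and monocyte precursors, had 1758, 55 and 91 counts in GFP+ libraries 19, 1 and 4 and 811, 14 and 26 in GFP- libraries 20, 2 and 5. That is 35.8, 4.50 and 6.60 CPM in GFP+ and 17.6, 1.01 and 3.29 CPM in GFP- Treg. Within each protocol the populations did not overlap, but between protocols they did, since the GFP- poly(A) library had more than both GFP+ single-cell protocol libraries. At 1.27 ± 0.39 (SE, n = 3 libraries a population), the log2 fold change was short of the calls over all genes, and the poly(A) pair gave 2.03-fold (95% interval 1.87 to 2.21). Leaving out single libraries moved the fitted value between 0.87 and 1.58.

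Cebpb (Entrez 12608, chromosome 2), the C/EBP factor of activated macrophages and of emergency granulocyte production, rested on the poly(A) pair alone. There it had 3306 counts (67.3 CPM) in GFP+ and 1014 counts (22.0 CPM) in GFP- Treg, a ratio of 3.05 (95% interval 2.84 to 3.28). The single-cell protocol libraries held 1 and 3 counts in GFP+ replicates 1 and 4 and 0 and 1 in GFP- replicates 2 and 5, at or under the floor of 3 counts. No difference was detectable there at this depth. The fit on all 6 libraries gave a log2 fold change of 1.61 ± 0.43 (SE, wider filter), but nearly all counts came from 1 poly(A) library per population. From the single-cell protocol libraries alone it was 1.49 ± 1.70 (SE).

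Cebpd (Entrez 12609, chromosome 16), a C/EBP factor induced in inflammation, had 67, 3 and 13 counts (1.36, 0.245 and 0.943 CPM) in GFP+ libraries 19, 1 and 4 and 14, 3 and 2 counts (0.304, 0.217 and 0.253 CPM) in GFP- libraries 20, 2 and 5. GFP+ replicate 1 fell among the GFP- libraries, so the populations overlapped in the single-cell protocol. The fit gave 1.82 ± 0.58 on the log2 scale (SE, wider filter), and the poly(A) pair gave 4.48-fold (95% interval 2.49 to 8.63).

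Zeb2 (Entrez 24136, chromosome 2), the zinc finger factor, had 290, 1 and 8 counts (5.90, 0.0818 and 0.580 CPM) in GFP+ libraries 19, 1 and 4, against 33, 0 and 1 counts (0.717, 0 and 0.127 CPM) in GFP- libraries 20, 2 and 5. The poly(A) libraries differed 8.23-fold (95% interval 5.73 to 12.2), close in size to Spi1. In the single-cell protocol GFP+ replicate 4 was above the GFP- libraries and GFP+ replicate 1 was not. On the log2 scale the fitted fold change was 2.99 ± 0.68 (SE, wider filter), and 2.59 ± 1.54 (SE) from the single-cell protocol libraries alone.

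**Figure D2:**
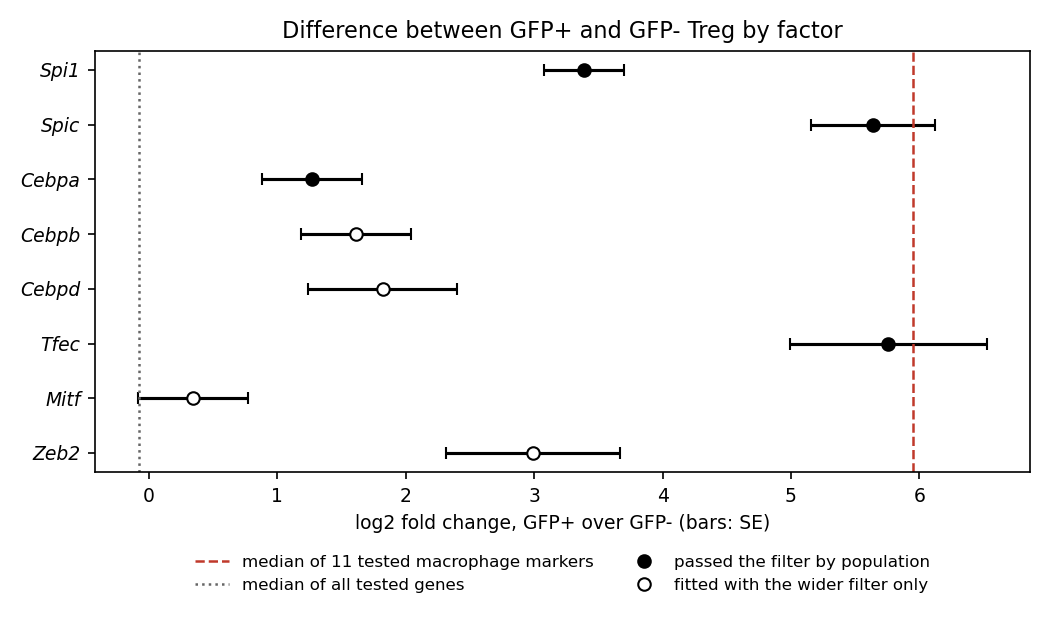
Fitted log2 fold change of GFP+ over GFP- Treg for each factor, with SE bars (n = 3 libraries per population). Filled points passed the filter by population and open points come from the wider filter; Spic (5.64) and Tfec (5.76) lie near the median of 11 tested macrophage markers (5.95, dashed), and Mitf (0.34) near that of all tested genes (-0.08, dotted).

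Per length, the order of the factors in GFP+ Treg depended on the protocol. On the RPKM scale (counts per 1000 bases of the table's gene length and per 1e6 counts of the library), the poly(A) GFP+ library ran from Cebpb at 77.5 through Cebpa at 23.5, Spi1 at 17.9 and Spic at 11.1 to Zeb2 at 1.12, Cebpd at 1.05, Tfec at 0.912 and Mitf at 0.456. In GFP+ replicates 1 and 4 Spic led with 14.8 and 7.63 RPKM, Spi1 followed with 4.32 and 4.86, then Cebpa with 1.19 and 1.96 and Tfec with 0.577 and 0.639. The order of Spic, Spi1, Cebpa and Tfec was the same in both of these libraries, while the places of the other 4 differed between them. In the poly(A) GFP- library Cebpb and Cebpa again led, at 24.8 and 11.3 RPKM, with Spi1 at 2.15 and Mitf, at 0.426, above Spic at 0.232. Lengths of Mitf and Zeb2 were 5178 and 9113 bases in the poly(A) table but 3000 in the single-cell protocol table, so their RPKM do not share a scale between protocols.

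How far a factor was read by each protocol is a measure that the choice of genes did not use. In the fit over all genes 34.6% of tested genes were lower and 30.5% higher in the single-cell protocol than in poly(A) libraries. The share of lower genes was 35.0% under the wider filter, which left out genes with no single-cell protocol count. Cebpb had a log2 difference of -8.62 ± 0.42 (edgeR, adjusted p = 2.13e-06, wider filter). At -8 or lower were only 20 of 11615 genes, a count that leaves out genes at 0 in all single-cell protocol libraries. Zeb2 followed at -3.93 ± 0.63 (adjusted p = 0.000540, wider filter) and Cebpa at -2.89 ± 0.38 (adjusted p = 0.000224). Cebpb, Zeb2 and, below, Mitf met the wider filter through their poly(A) counts alone, which favoured a lower reading in the single-cell protocol. Their p-values are therefore not read as a test. Both signs occurred, since Spic was higher in the single-cell protocol at 1.22 ± 0.47 (adjusted p = 0.0465).

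Spi1 stood at -1.01 ± 0.30 (edgeR, adjusted p = 0.0157) and Mitf at -1.23 ± 0.42 (adjusted p = 0.0277, wider filter), while Cebpd at -0.80 ± 0.55 (adjusted p = 0.231, wider filter) and Tfec at 0.76 ± 0.57 (adjusted p = 0.262) did not pass. Without GFP+ replicate 19 the value of Tfec was 2.97, still short of the threshold. The calls of Spi1 and Spic each depended on single libraries. That of Spi1 was lost without GFP+ replicate 19 (adjusted p = 0.0836) or GFP- replicate 20 (0.249), and that of Spic without GFP+ replicate 19 (0.409), GFP+ replicate 1 (0.194), GFP- replicate 20 (0.107) or GFP- replicate 2 (0.0590). Without GFP+ replicate 19 or GFP- replicate 20 only 1 poly(A) library was left. For Mitf and Zeb2 the p-values are not read as a test, so no call is weighed. With a library left out, the value of Mitf ran from -1.56 to -0.95, and DESeq2 on all 6 libraries gave an adjusted p of 0.0731. That of Zeb2 ran from -5.13 without GFP+ replicate 4 to -3.34 without GFP+ replicate 1. Scaled to library size alone, the median of all genes moved to -1.66 and Spic and Tfec turned to -0.30 and -0.64, so the direction of these 2 holds only relative to the other genes.

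Base composition moved with part of these values. The longest annotated transcripts of Cebpb, Cebpa and Spi1 have a GC content of 67.2%, 62.6% and 58.9%, at percentiles 99.9, 98.8 and 93.1 of 10083 genes, and those of Spic and Tfec have 41.8% and 40.3%, at percentiles 11.4 and 6.45. Across these genes the median protocol effect on the log2 scale went from 0.23 in the lowest GC quartile through -0.10 and -0.37 to -1.12 in the highest, and it was -1.95 for the 431 genes of at least 60% GC. Zeb2 and Mitf lie apart from that order, with 40.6% and 43.4% GC and a lower reading in the single-cell protocol. Both are long, and genes over 3000 bases in the poly(A) table had a median of -0.98 (4581 genes), against 0.61 for shorter ones (5502 genes). The single-cell protocol table lists 3000 bases for both Zeb2 and Mitf, and how reads of longer genes were counted there is not stated. The part of GC content, length and the counting of long genes in the protocol effects was not tested.

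**Figure D3:**
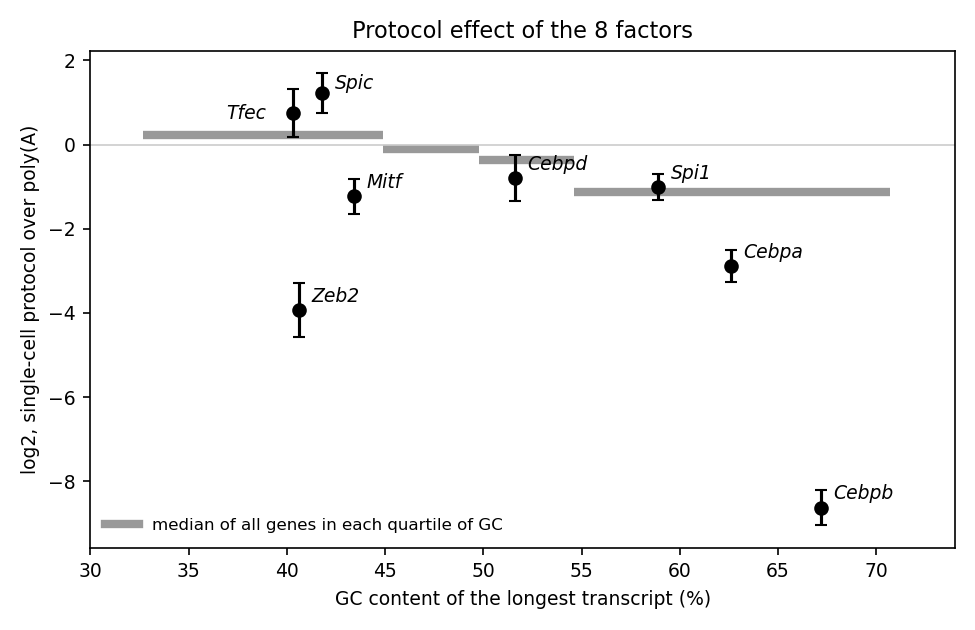
Protocol effect of each factor (log2, single-cell protocol over poly(A), SE bars, 6 libraries) against the GC content of its longest annotated transcript in percent. Grey bars are the medians of all genes in each GC quartile; Cebpb (-8.62) and Cebpa (-2.89) lie below the bar of the highest quartile (-1.12), and Zeb2 (-3.93) below that of the lowest (0.23).

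The size of the population difference was also compared between the protocols, by an interaction term, for the 4 factors past the filter. The single-cell protocol minus poly(A) difference in log2 fold change was 0.72 for Spi1 (95% interval -1.04 to 2.48), 0.27 for Spic (-2.37 to 2.90), 0.42 for Cebpa (-1.42 to 2.26) and -2.63 for Tfec (-7.11 to 1.85), each with an edgeR adjusted p of 1.00. Over all genes 0 of 10523 passed (0%) with edgeR and with DESeq2, and 24 genes (0.228%) had an unadjusted p under 0.05. The intervals are wide, and each still includes a difference of 2 on the log2 scale in at least one direction.

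Markers of macrophages were also higher in GFP+ Treg. Summed over the 12 markers with a single-cell protocol count, they stood at 770, 1310 and 1680 CPM in GFP+ libraries 19, 1 and 4 and at 11.6, 18.7 and 21.1 CPM in GFP- libraries 20, 2 and 5. Of 11 tested markers 11 were higher in GFP+ Treg, beside 9.81% of all genes. Their log2 fold changes ran from 4.68 to 6.51, with a median of 5.95. Some markers, such as Timd4 with 5, 1 and 3 counts in GFP- libraries 20, 2 and 5, passed the filter through GFP+ counts alone. That favoured a higher call, so the count of 11 is a description and not a test. Each of the 14 markers in the tables had counts in both poly(A) libraries. In sorted bulk samples more cells of a type and more RNA per cell cannot be told apart. The part of macrophage RNA in the values of the 8 factors was not tested.

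Set against the same marker sum, the values followed the size of each factor's population difference. The sum itself was far higher in GFP+ Treg, so any gene with a smaller difference than the markers comes out lower there. Nothing further is read from the direction. Spic had 10.5, 20.6 and 7.34 CPM per 1000 CPM of macrophage markers in GFP+ libraries 19, 1 and 4 and 15.0, 27.1 and 5.99 in GFP- libraries 20, 2 and 5, so its ranges overlapped, although the GFP- values rest on 8, 7 and 1 counts. Spi1 had 17.9, 6.31 and 4.92 in GFP+ and 146, 27.1 and 35.9 in GFP- Treg, which did not overlap, and here GFP+ was the lower population. Cebpa had 46.4, 3.44 and 3.93 in GFP+ against 1520, 54.3 and 156 in GFP- Treg, likewise apart.

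In the poly(A) libraries Cebpb had 87.3 per 1000 macrophage marker CPM in GFP+ and 1900 in GFP- Treg, Mitf 1.77 and 113, Zeb2 7.66 and 61.9, and Cebpd 1.77 and 26.3. All 4 were thus lower per marker CPM in the GFP+ library, which is 1 library per population. Tfec had 1.22, 1.12 and 0.863 in GFP+ libraries 19, 1 and 4 and, with 1 count in all, 0, 3.88 and 0 in GFP- libraries 20, 2 and 5.

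**Figure D4:**
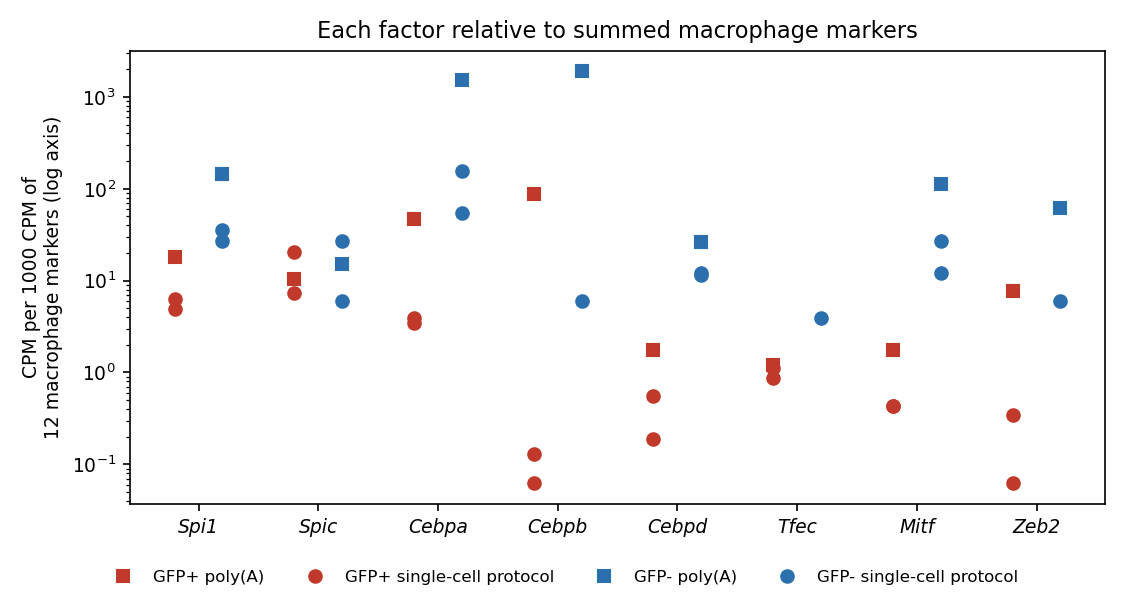
CPM of each factor per 1000 CPM of the 12 summed macrophage markers (log axis), GFP+ left and GFP- right within each factor. Squares are poly(A) and circles single-cell protocol libraries, and libraries at 0 are not drawn; the populations overlap for Spic (7.34 to 20.6 in GFP+ and 5.99 to 27.1 in GFP-) and lie apart for Spi1 (4.92 to 17.9 in GFP+ and 27.1 to 146 in GFP-).

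Markers of other cell types were counted in the same fit, where 9.81% of all genes were higher and 3.68% lower, and their part in the values of the factors was not tested either. Of monocyte and neutrophil markers 2 of 4 tested were higher (Cd14, Mmp9), with the granule gene Elane at 0 in 5 of 6 libraries, and of dendritic cell markers 1 of 2 (Itgax). For B cells 1 of 7 was higher (Blk), for plasma cells 2 of 6 (Sdc1, Irf4), for red cells 1 of 4 (Hba-a1), and for T cells 1 of 10 (Ctla4); the B and T cell shares are near that of all genes. In basophil and mast cell markers 1 of 1 tested was lower (Kit), with Fcer1a and Ms4a2 at 0 in all 6 libraries, and in natural killer and CD8 T cell markers 2 of 6 were lower (Ncr1, Cd8a). Within each protocol the summed levels of the dendritic, B, plasma and red cell lists were higher in every GFP+ than in every GFP- library, and those of basophils and mast cells lower. Those of monocytes and neutrophils, T cells, and natural killer and CD8 T cells overlapped between the populations in the single-cell protocol. Across both protocols the basophil and mast cell sums ran over 1.06 to 2.25 CPM in GFP+ and 2.66 to 6.76 CPM in GFP- libraries. For monocytes and neutrophils the sums were 122 to 233 CPM in GFP+ and 24.9 to 136 CPM in GFP- libraries, for dendritic cells 6.95 to 73.6 CPM in GFP+ and 1.77 to 57.4 CPM in GFP-, and for B cells 108 to 320 CPM in GFP+ and 77.6 to 181 CPM in GFP-. Unlike the macrophage sum, these list sums include markers at 0 in all single-cell protocol libraries, so ranges across protocols add different genes. In poly(A) GFP+ and GFP- Treg, Bst2 gave 50.8 and 52.8 CPM of the dendritic sum. Ccr2 gave 90.4 and 2.96 CPM of the monocyte and neutrophil sum there. Plasma cell markers summed to 188 to 483 CPM in GFP+ and 126 to 220 CPM in GFP- libraries, and red cell markers to 61.9 to 955 CPM in GFP+ and 33.5 to 339 CPM in GFP-. Natural killer and CD8 T cell markers summed to 32.2 to 69.6 CPM in GFP+ and 44.0 to 91.4 CPM in GFP- libraries. T cell markers stood at 5820 to 10700 CPM in GFP+ and 5790 to 9070 CPM in GFP- libraries.

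Genes most like each factor were sought over the 6 libraries by the root mean square difference of log2 CPM, centred within each protocol. For Spi1 these were Gna15 (0.07), Rnase4 and Il9r (0.14 each), and for Spic Apoe (0.30), Fpr1 and Aif1 (0.44 each). For Cebpa they were Abhd15 (0.07), Tmem176a (0.10) and Blvrb (0.11), and for Tfec Krt18 (0.11), Abcc3 and Popdc2 (0.19 each). Among the factors themselves Spi1 and Tfec were closest at 0.45, and Spic and Cebpa farthest apart at 2.29. The 6 libraries fall into 2 populations, so the size of the population difference enters each of these distances. For Tfec, with 1 count in all GFP- Treg, the prior count of 2 shrinks that difference. Krt18, Abcc3 and Popdc2 had log2 fold changes of 3.77 to 3.83, beside a fitted 5.76 for Tfec, so its distance to Spi1 depends on that floor.

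Other genes of the same families served as a comparison, with Cebpz counted among them by its symbol alone. Of 8 relatives, 7 were tested, and with edgeR 0 were called in either direction, against 3 at an unadjusted p under 0.05 and 1 called lower by DESeq2 (Zeb1). With 9.81% of all genes higher and 3.68% lower, a count of 0 among 7 is near the background. Their log2 fold changes ran from -0.83 (Zeb1, the paralog of Zeb2, adjusted p = 0.0909) to 0.72 (Tfeb, a lysosomal MiT/TFE factor, adjusted p = 0.0751), with a median of 0.16. Spib, the ETS relative of B cells, had 11.9, 2.94 and 4.28 CPM in GFP+ libraries 19, 1 and 4 and 10.4, 2.68 and 4.05 CPM in GFP- libraries 20, 2 and 5. Without GFP- replicate 5 Tfeb was called higher (adjusted p = 0.0237), and Zeb1 (0.0111) and Cebpz (0.0193) lower.

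Among 20 other transcription factors of myeloid cells 15 were tested, of which 7 were higher and 0 lower in GFP+ Treg, with a median log2 fold change of 1.22. Over all genes 9.81% were higher and 3.68% lower, and the median was -0.08. Among those higher were Pparg (3.84 ± 0.40, edgeR adjusted p = 0.000425) and Nr1h3 (3.75 ± 0.26, adjusted p = 7.31e-05), lipid-sensing nuclear receptors, and their partner Rxra (2.01 ± 0.27, adjusted p = 0.00140). Irf5, a factor of inflammatory macrophages, was higher by 1.29 ± 0.21 (adjusted p = 0.00396), but not without GFP+ replicate 19 (adjusted p = 0.0647) or GFP- replicate 20 (0.0573). Id2 (2.59) and Runx3 (1.40), which T cells use as well, were also among the 7.

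Maf and Irf8 lie on chromosome 8 and could be read in the poly(A) pair only. Maf, which effector T cells also express, had 1000 CPM in GFP+ and 119 CPM in GFP- Treg, a log2 ratio of 3.07. Irf8, needed for monocytes and dendritic cells, had 57.6 CPM in GFP+ and 51.7 CPM in GFP- Treg, a log2 ratio of 0.16. Factors that did not pass included Klf4 of monocytes (1.15, adjusted p = 0.0533) and Batf3 of dendritic cells (1.22, adjusted p = 0.0935).

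Genes known to be driven by the factors, or to go with them, were read from 5 further lists. Like the others, these lists were chosen with earlier results of these data known. Some genes also passed the filter through their GFP+ counts alone, which favoured a higher call. Il1b had 104, 143 and 180 counts in GFP+ libraries 19, 1 and 4. In GFP- libraries 20, 2 and 5 it had 3, 2 and 3. The calls and p-values of the 5 lists are therefore given as a description and not as a test. Of the PU.1 target list 19 of 22 genes were tested, 16 were higher and 0 lower, with a median log2 fold change of 3.37, beside 9.81% higher and a median of -0.08 over all genes. Csf1r, the receptor of the macrophage growth factor, had 6.32 ± 0.28 (edgeR, adjusted p = 2.34e-05), Emr1, the gene of F4/80, 5.29 ± 0.25 (2.34e-05), Mrc1, the mannose receptor, 5.95 ± 0.33 (2.99e-05), and Il1b, the cytokine interleukin-1 beta, 5.42 ± 0.41 (0.000108). Not called were Itgb2 (0.15), an integrin chain that T cells share, and the oxidase genes Cybb (0.46) and Ncf4 (0.42). Csf1r, Emr1, Mrc1 and Cd68 of this list are also among the macrophage markers above, as is Fcgr1, which was not tested.

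Of 14 genes of red pulp macrophages, the cells that need Spi-C, 10 were tested, 8 were higher and 0 lower, with a median of 6.17, beside 9.81% higher and 3.68% lower over all genes. Treml4, a receptor of splenic myeloid cells, had 25.1, 34.4 and 30.2 CPM in GFP+ libraries 19, 1 and 4 and 0.283, 0.507 and 0.506 CPM in GFP- libraries 20, 2 and 5 (edgeR, log2 fold change of 6.19 ± 0.30, adjusted p = 2.34e-05). The iron exporter Slc40a1 was at 6.18 ± 0.33 and the integrin chain Itgad at 6.38 ± 0.32 (adjusted p = 2.82e-05 each). Blvrb (1.26) and Ftl1 (0.49), genes of heme and iron handling in many cells, were not called. Cd163 and Mertk of this list are also among the macrophage markers above. In the poly(A) pair Hmox1, the heme oxygenase on chromosome 8, had 143 CPM in GFP+ and 4.09 CPM in GFP- Treg.

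C/EBP targets of granulocytes were mostly under the filter: of 15 genes only 1 was tested, and that one, Pla2g7, was higher by 5.42 ± 0.38 (edgeR, adjusted p = 7.49e-05). It passed the filter through its GFP+ counts, with 346, 173 and 282 there and 6, 8 and 2 in GFP- Treg. With 1 gene tested in this way, nothing is read for the C/EBP targets. Elane, Mpo and Prtn3, granule protease and peroxidase genes, had at most 8 counts in any library. Of 19 MiT/TFE targets 9 were tested, 2 were higher and 0 lower, with a median of 0.41, beside 9.81% higher and 3.68% lower over all genes. These were Atp6v0d2, a proton pump subunit of osteoclasts and macrophages, at 2.32 ± 0.33 (adjusted p = 0.00194) and Ctsb, the lysosomal protease cathepsin B, at 1.91 ± 0.30 (adjusted p = 0.00334). Pmel, a pigment cell gene, had -1.02 and an unadjusted p of 0.0117, and DESeq2 called it lower. The pigment gene Mlana had no count in any library.

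The list of terminal effector lymphocyte genes that go with Zeb2 split in both directions: GFP+ Treg had 4 of the 9 tested genes higher and 3 lower, beside 9.81% higher and 3.68% lower over all genes. Gzmb, the gene of granzyme B, was higher by 5.98 ± 0.29 (edgeR, adjusted p = 2.34e-05), Klrg1, a receptor of effector lymphocytes, by 5.38 ± 0.41 (0.000124), Gzma, the gene of granzyme A, by 5.27 ± 0.72 (0.00175) and Tbx21, the gene of T-bet, by 1.28 ± 0.24 (0.00852). Without GFP+ replicate 19, and likewise without GFP- replicate 20, the count of higher genes was 3. Among the lower genes were Tcf7 and Id3, factors of naive and memory T cells: the log2 fold change was -3.62 ± 0.32 for Tcf7 (adjusted p = 0.000226) and -3.02 ± 0.54 for Id3 (0.00634). Prf1, the gene of perforin, had -0.21 (adjusted p = 0.783), and Il7r had 0.66 (adjusted p = 0.0997).

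**Figure D5:**
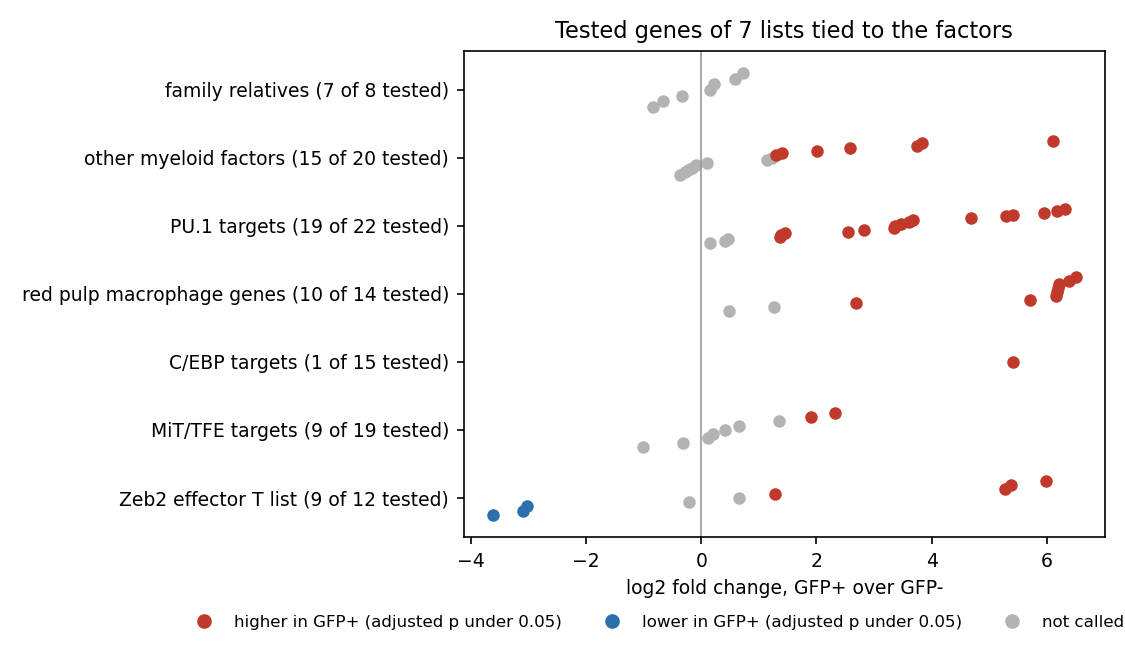
Log2 fold change (GFP+ over GFP-) of each tested gene in 7 lists tied to the factors, from the fit of all 6 libraries. Red points were called higher, blue points lower and grey points neither at an edgeR adjusted p under 0.05; 16 of 19 tested PU.1 targets and 8 of 10 red pulp macrophage genes are red, and 0 of 7 family relatives.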

How the data were processed

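Raw counts per Entrez gene were deposited in separate tables for the poly(A) libraries and for those of the single-cell protocol, with gene lengths per the file headers. The submitters' processing notes name Subread, featureCounts, edgeR and the build mm9. Versions and the use of strand are not stated there, so overlapping or antisense genes may share reads. A length of exactly 3000 bases was listed for 30.9% of genes with the single-cell protocol, whereas 8113 genes were longer with poly(A). A further deposited set of log2 RPKM values served only as an alternative, with limma.

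The deposited counts were analysed with edgeR 4.0.16 in R 4.3.3, using filterByExpr (minimum count 10) by population, TMM and a quasi-likelihood F-test on all 6 libraries with protocol as covariate (3 residual degrees of freedom, 2 with the interaction). Benjamini-Hochberg adjustment ran over all tested genes at 0.05, and standard errors derive from the F statistic. TMM factors were 2.06 (GFP+) and 2.02 (GFP-) for poly(A), and 0.519 to 0.846 for the rest. Every pair of libraries differed beyond sampling noise (chi-square of at least 88.9 per degree of freedom). Intervals and floors (3 counts) cover counting error only.

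The members and gene lists were chosen with earlier results of these data known. Named beside the 8 factors and Prdm1 are up to 5 genes per list with the smallest p, others that complete a count or did not pass, and the 3 genes most like each factor (log2 CPM with a prior count of 2, mean of at least 1 CPM). Some genes that this rule names are counted in their lists but not reported here. The wider filter and scaling to library size alone were added after seeing the data. Alternatives were RLE scaling, no filter, DESeq2 1.42.0, limma 3.58.1, no covariate, genes at 0 in the single-cell protocol left out, the single-cell protocol alone and each library left out. Scripts were tested on simulated data. GC content is that of the longest GENCODE transcript, found for 86.8% of genes under the wider filter.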

Additional observations from a re-analysis of the deposited data

How the results depend on the processing

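The GFP+ and GFP- samples share no replicate numbers, which does not show whether they were paired. Their pairing is unknown, and no paired analysis was run. Beside 1032 higher and 387 lower genes in GFP+ Treg as reported, edgeR called 115 higher and 24 lower without the protocol covariate, 562 and 146 in the single-cell protocol libraries alone, 1682 and 818 without a filter, and DESeq2 called 714 lower. Leaving out single libraries gave 562 to 1225 higher and 138 to 790 lower genes.

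Without the covariate 3 other myeloid factors, 6 PU.1 targets, 0 MiT/TFE targets and 1 gene of the Zeb2 list were higher, and 1 gene of that list was lower. Without a filter 13 red pulp genes were higher, and 1 relative and 2 MiT/TFE targets lower; DESeq2 called 1 relative and 1 MiT/TFE target lower. With single libraries left out, relatives called higher numbered 0 to 1 and lower 0 to 2, and MiT/TFE targets called lower 0 to 1.

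Beside 3643 genes lower and 3211 higher in the single-cell protocol as reported, 7209 lower genes were called without a filter, 6853 lower and 1074 higher with library size alone, and 2242 to 3732 lower and 1973 to 3377 higher with a library left out. With library size alone the protocol effect was -0.30 for Spic and -0.64 for Tfec, and that of Cebpd passed (-2.34). With a library left out the interaction ran from -0.39 to 1.81 for Spic, -0.18 to 1.43 for Cebpa and -3.42 to 0.74 for Tfec, never past the threshold. It changed sign without GFP+ replicate 1 or GFP- replicate 5 (Spic) and without GFP- replicate 2 (Cebpa, Tfec). The cause was not tested. The population difference kept its sign for all 8 factors under each alternative run. Under limma on the authors' log2 RPKM it was 2.69 for Cebpb, 1.08 for Cebpd, 6.51 for Tfec and 3.03 for Spi1. Low counts limit Cebpb, Cebpd, Zeb2 and Tfec, each with 0 to 3 counts in at least 3 libraries.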
